A study of Rattus norvegicus with 42 samples.

Results

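The comparison described here sets wild-type (WT) GH4C1 cells taken 22 h after a change of medium against WT cells taken 10 h after it. Its members are the 6 libraries so labelled, 3 replicates at each time, of 42 libraries in all. GH4C1 is an established line from a rat pituitary tumour whose cells belong to the lineage that makes growth hormone and prolactin, grown in medium with horse serum and fetal calf serum. The cells of both groups carried no deletion and were labelled as untreated; they differed in the time since fresh medium was given to synchronise the cultures. The study also sampled WT cells at 14, 18, 26, 30 and 34 h, and cells lacking Neat1, a long non-coding RNA, after CRISPR-Cas9 deletion (Neat1 -/-, here KO) at the same 7 times, with 3 replicates each. Whether the KO cells are 1 clone or several is not given in the sources used here, nor whether replicates came from separate cultures, so p-values measure the spread between these libraries, which may be technical.

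Fresh medium with serum is a common way to bring cultured cells into step. Serum factors switch on a first wave of transcription within hours, and they also reset the circadian clock, a loop in which transcription factors drive the genes of their own repressors. Transcripts that follow such a clock rise and fall about once a day, so samples taken 12 h apart stand at roughly opposite phases of it. Transcripts that answer to the medium change itself, or to the slow ageing of the medium, may or may not return to their first level. Neat1 is the RNA scaffold of paraspeckles, nuclear bodies that hold back some RNAs and proteins, and the study asked how its deletion affects rhythmic expression.

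The deposited tables name genes by Ensembl identifiers, and the RefSeq gene table at hand paired 0 of the 13776 identifiers with a gene symbol. Genes are therefore described by their levels and by groups defined from the tests, and 2 identifiers that rose and 2 that fell are named. Levels of pituitary hormones, clock genes, Neat1 and markers of other cell types were not analysed here, so neither the cell line nor the genotype was checked against its defining genes. In bulk RNA, more RNA per cell and more cells that express a gene cannot be told apart.

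The 3 libraries of 10 h held 41.8 to 68.8 M counts (M, mega) and those of 22 h held 36.2 to 44.3 M, so the 10 h libraries were deeper on average (55.8 against 41.5 M). Over all 42 libraries the range was 34.5 to 68.8 M. The 10 most abundant genes took 6.28% to 7.05% of the counts at 10 h and 6.01% to 6.55% at 22 h. No pair of replicates agreed within sampling noise, with a chi-square per degree of freedom of 6.12 or more in each of the 6 pairs. Every library was counted as its own replicate, but this measure cannot show whether replicates came from separate cultures. One WT library outside this comparison, replicate 1 of 34 h, stands apart from its own replicates. It was left out of the estimate of spread, and values with it are given where they differ.

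Libraries 12 h apart differed from each other more than replicates did. The median absolute difference of a gene's log2 level, over 13758 genes, was 0.15 to 0.19 in the 9 pairs of a 10 h and a 22 h library. Between replicates it was 0.08 to 0.09 at 22 h and 0.07 to 0.13 at 10 h. The upper end at 10 h came from replicate 3, which differed from replicates 1 and 2 by 0.13 each, while those differed from each other by 0.07. By this measure replicate 3 was also the 10 h library nearest to each of the 22 h libraries, at 0.15 to 0.16. It was the shallowest of the 10 h libraries, and the part of depth in its position was not tested.

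Levels of many genes differed between 10 h and 22 h, about as many higher as lower. Of 13758 genes tested, 3507 were called by edgeR's quasi-likelihood test at an adjusted p under 0.05 (25.5%). Of these, 1756 (12.8%) were higher and 1751 (12.7%) lower at 22 h, and the fold change of the median gene was 0.00 on the log2 scale. The scaling takes most genes as unchanged, which draws the median towards 0 and bears on this balance. The share of calls higher at 22 h was 50.1%, against 47.9% with RLE size factors and 52.9% with library totals. A change of all RNA per cell alike would not show. Among the genes called higher, 1706 had no overlap between the 3 levels of 10 h and the 3 of 22 h, as had 1694 of those called lower; over all genes tested 5407 had none. An unadjusted p under 0.05 was found for 4999 genes. With replicate 1 of WT 34 h in the fit, which widens the estimated spread, the test called 1111 genes, 549 of them higher at 22 h. Without replicate 3 of 10 h it called 3614.

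Most of the changes were small. The median fold was 1.24 for the genes called higher and also for those called lower, and 684 and 642 of them, respectively, changed by less than 1.2-fold. A change of at least 1.5-fold was fitted for 238 genes called higher and 298 called lower, and one of at least 2-fold for 45 and 81. A test that asks for a change beyond 1.5-fold, which is stricter than a call plus a fitted fold, called 97 genes, of which 27.8% were higher at 22 h. Calls were more frequent and smaller among genes of higher level. In the quartile of genes with the lowest mean level, 0.04 to 5.75 CPM (the read count scaled to library size), 13.4% were called, with a median absolute log2 change of 0.66 among the calls and a median standard error of 0.20 over that quartile. In the quartile with the highest level, above 62.9 CPM, 34.6% were called, with a median change of 0.24 and a median standard error of 0.05.

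**Figure D1:**
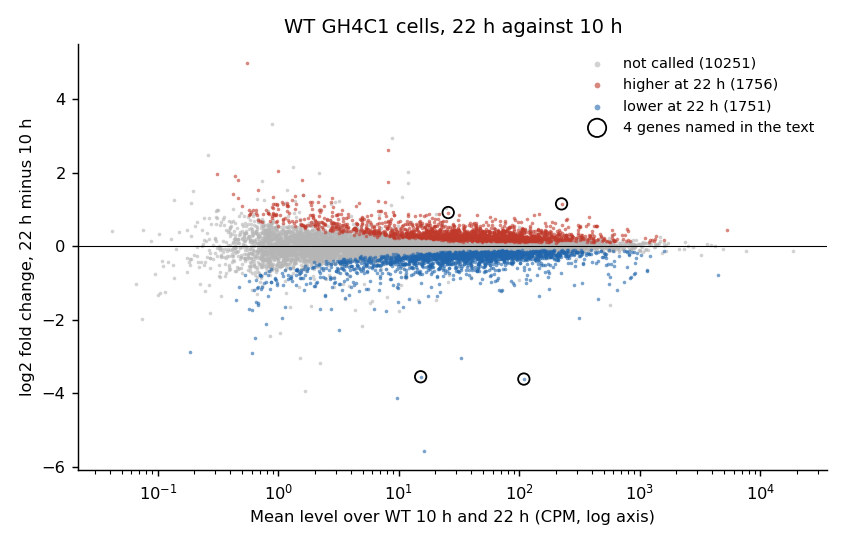
Each point is a gene, with its mean level in WT cells at 10 h and 22 h (CPM, log axis) on the x axis and its log2 fold change, 22 h minus 10 h, on the y axis; red and blue mark the 1756 genes called higher and the 1751 called lower, and grey the 10251 not called. With the scaling used, calls are balanced around 0 and mostly small, while the deepest changes among well-expressed genes lie below 0.

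Large changes were mostly decreases once genes of low level were set aside. Among the 9203 genes whose mean over the 6 libraries reached 10 CPM, 26 called genes fell by 2-fold or more and 1 rose by as much. The 10 h and 22 h levels did not overlap for 25 of the 26 and for the 1 that rose. Of the 45 genes called higher by at least 2-fold, 40 lay in the quartile with the lowest levels. The extreme fold changes at either end rested on single libraries. The lowest, at -5.56 (SE 2.00, adjusted p 0.0483 by edgeR), belonged to a gene with 92.6 CPM in replicate 1 of 10 h and 0.28 to 1.30 CPM in the other 5 libraries. The highest, at 4.97 (SE 1.67, adjusted p 0.0344 by edgeR), belonged to a gene with 3.06 CPM in replicate 2 of 22 h and at most 0.08 CPM elsewhere. The second lowest did not rest on 1 library. That gene had 20.3, 17.3 and 16.7 CPM at 10 h and 1.11, 0.84 and 1.15 CPM at 22 h (log2 fold change -4.13, SE 0.15, adjusted p 3.38e-13 by edgeR). Its mean level of 9.56 CPM was under the minimum set for naming a gene.

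Genes called higher held 14.1%, 14.3% and 14.6% of the counts in the 10 h replicates and 17.6%, 17.4% and 17.5% in the 22 h replicates. Genes called lower held 17.4%, 17.3% and 16.9% at 10 h and 13.7%, 13.6% and 13.6% at 22 h. The remaining genes held 68.4% to 69.0% of each of the 6 libraries. These shares describe genes chosen for their change, and since shares add up to the whole library, a gain in one group goes with a loss in the other.

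The naming rule asked for a call, a mean of at least 10 CPM and no overlap between the libraries of 10 h and 22 h. The largest fold changes among such genes were then taken. Lack of overlap and the WT calls of the named genes thus follow from the choice and add no support. The deepest decrease among genes that met the naming rule was that of ENSRNOG00000043098. Its level was 204, 204 and 196 CPM in the 10 h replicates and 17.7, 16.1 and 15.5 CPM in the 22 h replicates. Every 10 h library was thus more than 10-fold above every 22 h library, with no overlap. The fitted log2 fold change was -3.62 (SE 0.07, adjusted p 3.57e-17 by edgeR), a 12.3-fold decrease. Most of the decrease in CPM had occurred by 14 h, when the mean was 60.7 ± 2.50 CPM (SD, n = 3), and it continued to 23.6 ± 2.04 CPM at 18 h. On the log2 scale the fitted change from 10 h was -1.73 at 14 h and -3.09 at 18 h. From 22 h the level stayed low, at 15.7 ± 1.25 CPM at 26 h and 14.6 ± 0.68 CPM at 30 h (SD, n = 3 each). At 34 h, a full day after the first sampling, it was 17.9 and 19.9 CPM in replicates 2 and 3 and 22.3 CPM in replicate 1, far under the 10 h level. In KO cells the gene was already low at 10 h, at 15.6 ± 1.16 CPM (SD, n = 3). It stood at 12.1 ± 0.46 CPM at 22 h (SD, n = 3). This smaller decrease was also called (log2 fold change -0.36, adjusted p 0.0245 by edgeR).

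ENSRNOG00000038047 was the second named gene that fell. Its level was 28.4, 30.4 and 25.1 CPM at 10 h and 2.81, 2.28 and 2.02 CPM at 22 h, for a fitted log2 change of -3.55 (SE 0.15, adjusted p 4.76e-12 by edgeR). The groups did not overlap. By 14 h it had dropped to 5.79 ± 0.75 CPM (SD, n = 3), a log2 change of -2.27 against 10 h. The level was 2.90 ± 0.14 CPM at 26 h and 2.04 ± 0.19 CPM at 30 h (SD, n = 3 each). At 34 h it was 2.21 and 3.44 CPM in replicates 2 and 3 and 5.64 CPM in replicate 1. KO cells had 5.80 ± 0.51 CPM at 10 h and 4.14 ± 0.47 CPM at 22 h (SD, n = 3 each), and that change did not pass the test (adjusted p 0.0909 by edgeR). At 10 h the KO libraries therefore stood below the WT libraries, and at 22 h, with 3.69 to 4.63 CPM, above all of them.

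ENSRNOG00000001989 rose most among the genes that met the rule. Its level was 135, 133 and 150 CPM at 10 h and 314, 312 and 300 CPM at 22 h, with no overlap. The log2 fold change was 1.15 (SE 0.08, adjusted p 2.15e-09 by edgeR), a 2.22-fold rise. The rise was gradual, with 186 ± 23.99 CPM at 14 h and 243 ± 23.99 CPM at 18 h (SD, n = 3 each), and it went on past 22 h to 358 ± 13.3 CPM at 30 h (SD, n = 3). At 34 h replicates 2 and 3 had 397 and 412 CPM, and replicate 1 had 268 CPM. In KO cells the level began higher, at 274 ± 6.30 CPM, and was lower at 22 h, at 222 ± 10.2 CPM (SD, n = 3 each; log2 fold change -0.30, adjusted p 0.0146 by edgeR).

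ENSRNOG00000025378 was the second named gene that rose. Its level was 19.6, 18.1 and 15.7 CPM at 10 h and 34.8, 32.9 and 33.0 CPM at 22 h, with no overlap. The log2 fold change was 0.91 (SE 0.08, adjusted p 8.5e-08 by edgeR), a 1.88-fold rise. It reached 31.2 ± 2.66 CPM by 18 h (SD, n = 3) and was highest at 22 h and 26 h, where the mean was 33.6 ± 1.05 and 33.7 ± 1.47 CPM. At 30 h it was 30.1 ± 0.76 CPM (SD, n = 3 each), and replicates 2 and 3 of 34 h had 27.2 and 27.8 CPM, between the 10 h and the 22 h levels. Replicate 1 of 34 h, at 32.9 CPM, was at the 22 h level. In KO cells the gene was level across the span, at 28.8 ± 0.63 CPM at 10 h and 28.7 ± 1.44 CPM at 22 h (SD, n = 3 each; adjusted p 0.982 by edgeR).

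**Figure D2:**
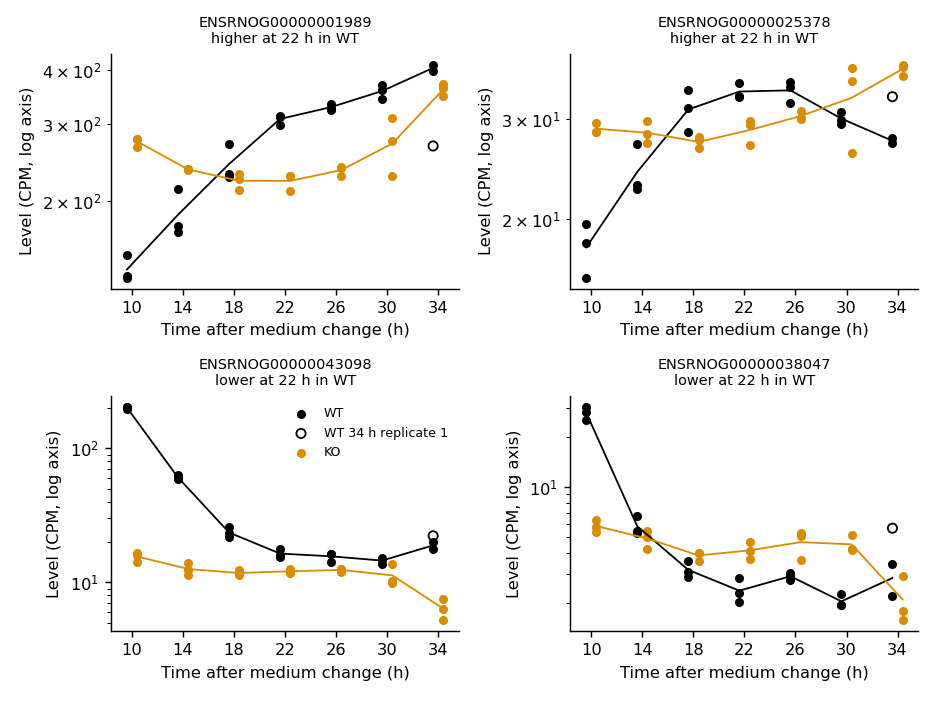
Each panel shows 1 named gene, with time after the medium change (h) on the x axis and its level in each library (CPM, log axis) on the y axis; black points are WT libraries, orange points KO libraries, lines join the group means, and the open circle is WT 34 h replicate 1, which the WT line leaves out. In WT cells ENSRNOG00000043098 fell from 196 to 204 CPM at 10 h to 15.5 to 17.7 CPM at 22 h. The KO libraries were at 14.3 to 16.6 CPM at 10 h and 11.8 to 12.6 CPM at 22 h.

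The 12 h span was then split into its 4 h steps to see when the change occurred. Between 10 h and 14 h, 845 genes (6.14%) were called. Between 14 h and 18 h the count was 122 (0.887%), and between 18 h and 22 h it was 32 (0.233%), so calls were fewest in the last step. DESeq2 called 1126, 316 and 142 genes in these steps, in the same order. A count of calls is not the size of a step. For the genes called higher at 22 h, the median log2 change from 10 h was 0.15 at 14 h, 0.23 at 18 h and 0.31 at 22 h. For those called lower it was -0.16, -0.23 and -0.31. These genes were chosen for their change at 22 h, which favours the largest value there. Measured from 10 h, the number of genes called was 2352 at 18 h (17.1%), 3507 at 22 h, 3508 at 26 h (25.5%), 4464 at 30 h (32.4%) and 4518 at 34 h (32.8%). These comparisons share the 10 h libraries. Rhythm was not tested here. The count for 34 h rests on 2 libraries of that time. With replicate 1 of 34 h in the fit, the counts from 10 h were 118 at 14 h, 574 at 18 h, 1111 at 22 h, 1162 at 26 h, 1521 at 30 h and 3310 at 34 h, and the later 4 h steps had 4 and 1.

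**Figure D3:**
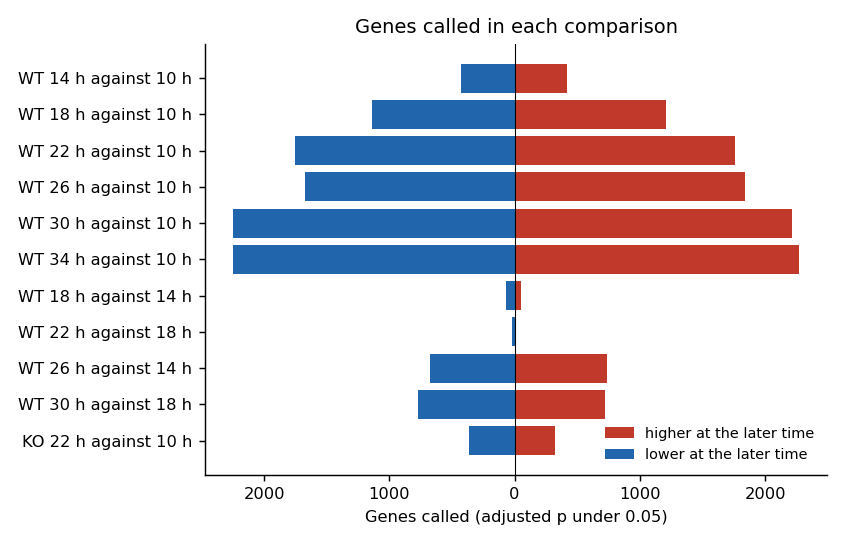
Bars give the number of genes called at an adjusted p under 0.05 in each comparison, higher at the later time to the right (red) and lower to the left (blue). WT 22 h against 10 h called 1756 and 1751 genes. The steps from 14 h to 18 h and from 18 h to 22 h called 122 and 32 genes in all. The KO comparison of 22 h against 10 h, from the fit of 41 libraries, called 326 and 364.

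The course of the 2 groups of genes was followed in the WT libraries of the other times. Their levels did not enter the fold change that chose the genes, though the fit took its estimate of spread from them too. Relative to the mean of the 14 h libraries, the median log2 level of the 1756 genes called higher was 0.08 ± 0.02 at 18 h, 0.13 ± 0.01 at 26 h and 0.14 ± 0.01 at 30 h (SD, n = 3 each). At 34 h it was 0.12 and 0.14 in replicates 2 and 3, and 0.04 in replicate 1. The 1751 genes called lower stood at -0.08 ± 0.03 at 18 h, -0.13 ± 0.01 at 26 h and -0.18 ± 0.02 at 30 h (SD, n = 3 each), and at -0.13 to -0.17 in the 3 libraries of 34 h. Both groups were thus further from the 14 h level at 26 h than at 18 h, and neither was back at it by 34 h. In the 10 h and 22 h libraries, whose difference chose the genes, the medians were -0.15 ± 0.02 and 0.16 ± 0.04 at 10 h and 0.16 ± 0.01 and -0.16 ± 0.01 at 22 h for the genes called higher and lower, respectively (SD, n = 3 each). Among the 10 h libraries, replicate 3 was nearest to the 14 h level in both groups, at -0.12 and 0.12. In KO cells, relative to the KO libraries of 14 h, the genes called lower in WT stood at -0.03 ± 0.04 at 30 h and -0.09 ± 0.01 at 34 h (SD, n = 3 each), and those called higher at -0.02 ± 0.01 and -0.01 ± 0.01.

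**Figure D4:**
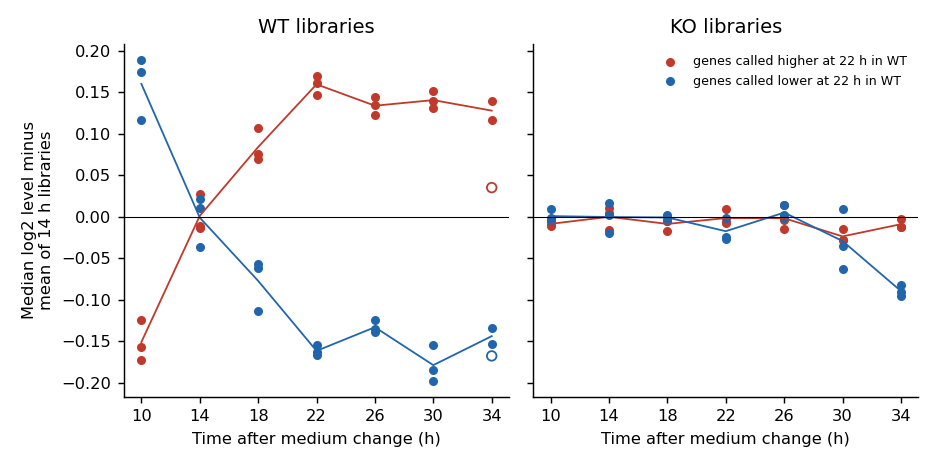
Each point is a library, with time after the medium change (h) on the x axis and, on the y axis, the median log2 level of the genes called higher (red) or lower (blue) at 22 h in WT, minus the mean of the 14 h libraries of the same genotype; lines join group means, and open circles mark WT 34 h replicate 1, which the lines leave out. The WT medians separate to 0.16 and -0.16 at 22 h and stay apart to 34 h, whereas the KO medians stay within 0.03 of 0 up to 26 h and that of the genes called lower reaches -0.09 at 34 h.

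Other 12 h spans of the WT series that share no library with this one gave a partial match. The spans take their spread from the same fit, so genes of small estimated spread pass more easily in each of them. From 14 h to 26 h, 1411 genes were called (10.3%). Of the 1756 genes called higher from 10 h to 22 h, 484 (27.6%) were called higher there by edgeR and 0 lower. The shares were 5.35% and 4.91% over all genes tested, and 2.32% and 1.54% over genes not called from 10 h to 22 h. An unadjusted p under 0.05 with a lower level was found for 8 of the 1756, and DESeq2 called 2 of them lower. Of the 1751 genes called lower, 517 (29.5%) were called lower and 14 (0.8%) higher. From 18 h to 30 h, 1492 genes were called (10.8%). Of the genes called higher at 22 h, 256 (14.6%) were called higher from 18 h to 30 h and 62 (3.53%) lower. The shares were 5.24% and 5.6% over all genes tested, and 4.16% and 3.21% over genes not called from 10 h to 22 h. Of the genes called lower at 22 h, 380 (21.7%) were called lower and 39 (2.23%) higher. In each of these spans taken alone, most members of both groups did not pass the test; their median log2 change was 0.13 and -0.13 from 14 h to 26 h, and 0.06 and -0.11 from 18 h to 30 h.

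In KO cells the same span held fewer called changes. The fit with the 41 libraries of WT and KO called 3717 genes for 22 h against 10 h in WT. The WT genes followed below are those of the WT fit. In the fit of 41 libraries, KO 22 h against 10 h was called for 690 of 13776 genes (5.01%), 326 higher (2.37%) and 364 lower (2.64%). The count was 378 to 456 when 1 of the 6 KO libraries was left out, lowest without replicate 1 of 10 h, and 183 with WT 34 h replicate 1 in the fit, so the shared genes below rest on a set that these libraries move. Of the 1756 genes called higher in WT, 73 were called higher in KO and 74 lower, which is 4.16% and 4.21% of them. Of the 1751 genes called lower in WT, 109 (6.23%) were called lower in KO and 70 (4%) higher. As shares of the KO calls, the 73 genes higher in both were 22.4% of the genes higher in KO, and the 109 genes lower in both were 29.9% of those lower in KO. The opposite order was nearly as frequent among genes higher in KO, where the 70 genes lower in WT were 21.5%. Among genes lower in KO, the 74 genes higher in WT were 20.3%. Over all genes tested in WT, 12.8% were called higher and 12.7% lower. The median KO log2 fold change was 0.01 for the genes called higher in WT and -0.02 for those called lower. Over the 13758 genes, which are not independent replicates, the Pearson correlation of the 2 fold changes was 0.05.

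Since a call in one genotype does not show a difference, the difference between the WT and the KO change was tested directly. It was called for 2193 of 13776 genes (15.9%), with WT minus KO above 0 for 1081 (7.85%) and below 0 for 1112 (8.07%). Of the genes called higher in WT, 867 had a WT change above the KO change and 1 had one below it. Of the genes called lower in WT, 882 had a WT change below the KO change and 2 above it. These genes were chosen for a large WT change, which favours such an order. Among genes not called in WT, 4.3% were called for the difference. Of the 2193 genes, 786 rose in WT and 788 fell in WT without a call in KO. A further 74 rose in WT and fell in KO, and 70 fell in WT and rose in KO. In KO without a call in WT, 85 were called higher and 88 lower. Calls went the same way in both genotypes for 8 genes that rose and 26 that fell. The other 268 (12.2%) were called in neither genotype. The median absolute difference was 0.41 on the log2 scale, and it was at least 1 for 181 genes. With WT 34 h replicate 1 in the fit the difference was called for 888 genes.

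All 4 named genes were called for this difference. They were chosen for a large WT change, which favours such a call. On the log2 scale, WT minus KO was -3.25 (SE 0.14, adjusted p 3.01e-18 by edgeR) for ENSRNOG00000043098. For ENSRNOG00000038047 it was -3.07 (SE 0.24, adjusted p 2.65e-11 by edgeR). For ENSRNOG00000001989 it was 1.45 (SE 0.11, adjusted p 7.82e-12 by edgeR), where WT rose and KO fell. For ENSRNOG00000025378 it was 0.92 (SE 0.12, adjusted p 6.85e-07 by edgeR). ENSRNOG00000043098 was above the KO level in WT at both times, by far more at 10 h than at 22 h. ENSRNOG00000038047 crossed from above the KO level at 10 h to below it at 22 h, and the 2 genes that rose crossed from below it to above it. The order of WT and KO levels at either time was not tested and rests on the scaling between genotypes. The make-up of the libraries differed between them. The 10 most abundant genes took 23.2% to 27.1% of the counts in the 21 KO libraries, against at most 7.16% in the 21 WT libraries. The scaling factors (TMM) were 0.879 to 0.948 in KO and 1.08 to 1.17 in WT. How far this gap bears on the order of the levels was not tested.

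**Figure D5:**
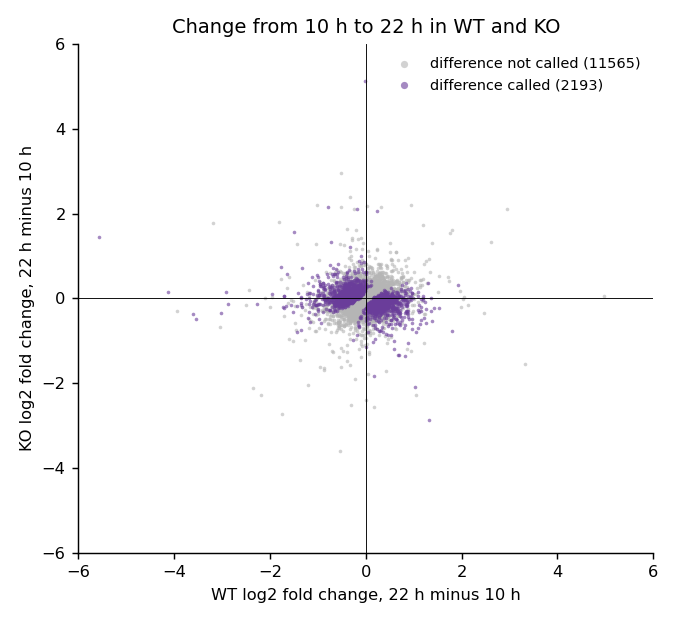
Each point is a gene, with its log2 fold change from 10 h to 22 h in WT on the x axis and in KO on the y axis; purple marks the 2193 genes called for the difference between the 2 changes and grey the 11565 not called. Points called for the difference spread mainly along the WT axis, with a median absolute change of 0.32 in WT and 0.11 in KO.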

How the data were processed

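RNA sequencing of total RNA gave 42 libraries (strand-specific, paired reads of 150 bp, per the labels' protocols). The authors deposited whole-number counts of reads per gene, not normalized, made with featureCounts per the submitters' processing notes; the aligner, genome build, annotation, strand setting and rule for listing genes are not given in the sources used here. Reads of overlapping genes or near-identical copies may have been split between genes.

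Counts were tested in R 4.3.3 with edgeR 4.0.16 (quasi-likelihood F test, TMM factors from all 42 libraries, filterByExpr, Benjamini-Hochberg over all genes tested). The WT fit had 7 group means and 20 libraries, and 18 of 13776 genes were filtered out; the test against KO used 14 group means and 41 libraries. CPM are TMM-scaled, and log2 levels use a prior count of 1. Replicate numbers were not used to pair libraries. In simulated counts with 200 changed genes among 13760, the WT test recovered 13% of changes of 0.25 (log2), 71.5% of 0.5 and 92.5% of 1, with 2, 7 and 13 false calls. For the difference between WT and KO, over 13776 genes, it recovered 40% of 0.5 and 85% of 1. The data had far more calls than 200, at 3507 for WT and 2193 for the difference. Adjusted p depends on the share of genes that change, so these rates are not the sensitivity of the reported tests.

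The named genes were to be the highest and lowest fold changes among called genes with a symbol, at least 10 CPM and no overlap between groups; with no symbols, the first 2 of 1385 higher and of 1380 lower genes were taken. The members, lists and tests were chosen with earlier results of these data known. Gene lists, markers and promoter motifs needed symbols and were not analysed here. Alternatives included other libraries, scalings, filters, DESeq2 1.42.0, a 1.5-fold minimum, the replicate block and left-out replicates.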

Additional observations from a re-analysis of the deposited data

Results flagged for a closer look

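The change from 10 h to 22 h differed between WT and KO cells by a direct test for 2193 genes, 1081 with WT minus KO above 0 and 1112 below. The same test called each named gene, and these were chosen for a large WT change. The difference, WT minus KO on the log2 scale, was 1.45 for ENSRNOG00000001989, 0.92 for ENSRNOG00000025378, -3.25 for ENSRNOG00000043098 and -3.07 for ENSRNOG00000038047. The WT and KO cells were separate cultures, so a difference in handling between them cannot be told apart from genotype.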

How the results depend on the processing

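The alternatives gave 205 values for 18 results. For the 4 named genes, direction and call were the same in all 76 refitted fold changes, with adjusted p up to 0.0103, and 69 of 91 counts of called genes stayed within 1.5 times of the reported count. Thinning took the 20 libraries of the WT fit, those of 10 h and 22 h alike, to the lowest WT total of 34.5 M counts. This refit and one leaving out all 34 h libraries were added after seeing the data. They called 3339 and 3697 genes, respectively, for 22 h against 10 h in WT.

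Adding WT 34 h replicate 1 lowered most counts. In the 21-library WT fit, 22 h against 10 h was called for 1111 genes and, from 10 h, 14 h for 118, 18 h for 574, 26 h for 1162 and 30 h for 1521. The spans 14 to 18 h, 18 to 22 h, 14 to 26 h and 18 to 30 h had 4, 1, 292 and 121 calls. With all 42 libraries, 22 h against 10 h had 1814 calls in WT and 183 in KO, and the difference had 888. The 1.5-fold minimum left 97 calls by construction. DESeq2 called 316 genes from 14 to 18 h and 142 from 18 to 22 h. With replicates left out, 22 h against 10 h had 2575 to 3614 calls in WT and 378 to 720 in KO, the fewest without KO 10 h replicate 1, and the difference had 1789 to 2402.

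Same-numbered replicates of 10 h and 22 h did not deviate together (correlations -0.07, -0.10 and -0.03). The replicate block called 3372 genes for 22 h against 10 h and moved 1 count by over 1.5 times, that from 18 to 22 h, to 17. Unless stated, the cause was not tested for these shifts. Gene lists were not run. The share of calls higher at 22 h was 47.9% with RLE size factors and 52.9% with library totals, against 50.1%.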
